A study of Mus musculus with 24 samples.

Results

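Beside transcripts that belong to annotated genes, transcript assembly from RNA-seq reads returns transcripts that match no gene of the reference. In the authors' table of long non-coding RNAs, 5925 of 23698 assembled transcripts (25%) carried no gene identifier. The 4028 described here (17.0% of the table) were those with at least 0.1 FPKM in at least 3 of the 12 libraries. FPKM is a fragment count scaled to transcript length in kilobases and to the total of the library. The other 1897 transcripts without a gene fell below that rule: 120 of them had no count in any library, and their median total over all libraries was 4 counts. By the same rule 8724 transcripts with a reference gene were retained, so that 12752 transcripts were tested.

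Long non-coding RNAs are transcripts longer than small RNAs that are not translated into a known protein. Many are made at low level and in few cell types, and brain cortex is a tissue rich in them. An assembled transcript without a gene can be an independent non-coding RNA, an antisense or intergenic transcript, an unspliced precursor, or a piece of a longer transcript such as an extended end of a gene. The table gave neither chromosome, start, end nor strand for any of the 4028, so these kinds could not be separated here and no transcript is placed in the genome or printed as sequence. An overlap with a known gene on either strand therefore cannot be told apart from independent transcription. Each transcript is named by its identifier in the table, which begins with TCONS.

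Medial frontal cortices were taken at P28 (postnatal day 28), and all mice were of the strain C57BL/6J. The control genotype was Emx1-cre. The genotype called Dnmt3l below was Dnmt3l;Emx1-cre, a conditional Dnmt3l knock-in bred to Emx1-cre, so that the controls share the Cre allele. Dnmt3l is a member of the DNA methyltransferase family that lacks catalytic activity itself and stimulates the de novo methyltransferases Dnmt3a and Dnmt3b. It is known mainly from germ cells and early embryos. Emx1-cre is active in progenitors of the dorsal forebrain, which give rise to cortical excitatory neurons and many of the macroglia; cortical interneurons, microglia and endothelium mostly arise elsewhere. There were 3 control males (CM1 to CM3), 3 control females (CF1 to CF3), 3 Dnmt3l males (DM1 to DM3) and 3 Dnmt3l females (DF1 to DF3), each with 1 library depleted of ribosomal RNA. The labels do not say whether each library came from a separate mouse, so p-values measure the spread between these libraries. In a bulk sample, fewer cells that make a transcript and less of it per cell cannot be told apart.

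The long non-coding table held 1467252 to 1839502 expected counts per library, of which the 4028 transcripts took 502976 to 642828, and the mRNA table held 22015783 to 31917491. In CPM (counts per 1000000 counts) of the mRNA table, Dnmt3l lay between 20.7 and 27.0 in 5 Dnmt3l libraries and at 45.8 in DF1. It was at or below 0.102 CPM in the controls. All 8 markers of cortical excitatory neurons were detected, with a summed level of 4363 to 5303 CPM in controls and 5782 to 7037 CPM in Dnmt3l libraries. The summed levels of 5 microglial markers (184 to 210 CPM in controls, 332 to 406 CPM in 5 Dnmt3l libraries), 5 astrocyte markers (5814 to 6448 against 10243 to 12437 CPM) and 5 endothelial markers (139 to 157 against 267 to 314 CPM) did not overlap between controls and these 5 libraries, and DF1 lay apart from the other 5 with 212, 6617 and 179 CPM. The 5 interneuron markers summed to 541 to 622 CPM in controls and 416 to 510 CPM in Dnmt3l libraries, and they did not move together: Gad1 and Gad2, which make the transmitter GABA, lay below all controls in every Dnmt3l library, and Vip, a neuropeptide, above them. Of the microglial markers 2 of 5 lay above every control in all Dnmt3l libraries, and 5 of 5 without DF1; of the astrocyte markers 1 of 5 and 4 of 5; of the endothelial markers 4 of 5 and 5 of 5. The sum of 6 striatal markers was 156 CPM in DF1 and 112 CPM in DF2, and 312 to 557 CPM in the others. For 6 choroid plexus markers it ran from 88.7 to 342 CPM in controls and from 62.6 to 605 CPM in Dnmt3l libraries. For 5 oligodendrocyte markers it ran from 2866 to 5457 and from 2801 to 8950 CPM. No marker of these lists was at 0 in all libraries. A sum of 7 liver genes reached 64.2 to 78.1 CPM in CM3, CF1 and CF2 and at most 0.658 CPM elsewhere. The part of these differences in the results below was not tested, and the main counts are given with and without these libraries.

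The transcripts without a gene covered a wide range of length and level. Their length ran from 203 to 54583 bases, with a median of 1282 bases and quartiles of 605 and 3221 bases. The retained transcripts with a gene had a median length of 1849 bases and quartiles of 920 and 3596 bases. The mean expected count per library had a median of 11.3, with quartiles of 2.42 and 67.1, against a median of 8.42 for transcripts with a gene. An expected count is an estimate in which a read that fits several transcripts is divided among them. In 1993 of the 4028 (49.5%) the counts were whole numbers in all 12 libraries, against 40.1% of the transcripts with a gene. The longer transcripts had the higher counts (Spearman's rho of 0.65 across the 4028, a description, since a longer transcript collects more reads and all points share the same libraries). There were 229 transcripts of 10 kilobases or more and 68 of more than 20 kilobases.

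**Figure D1:**
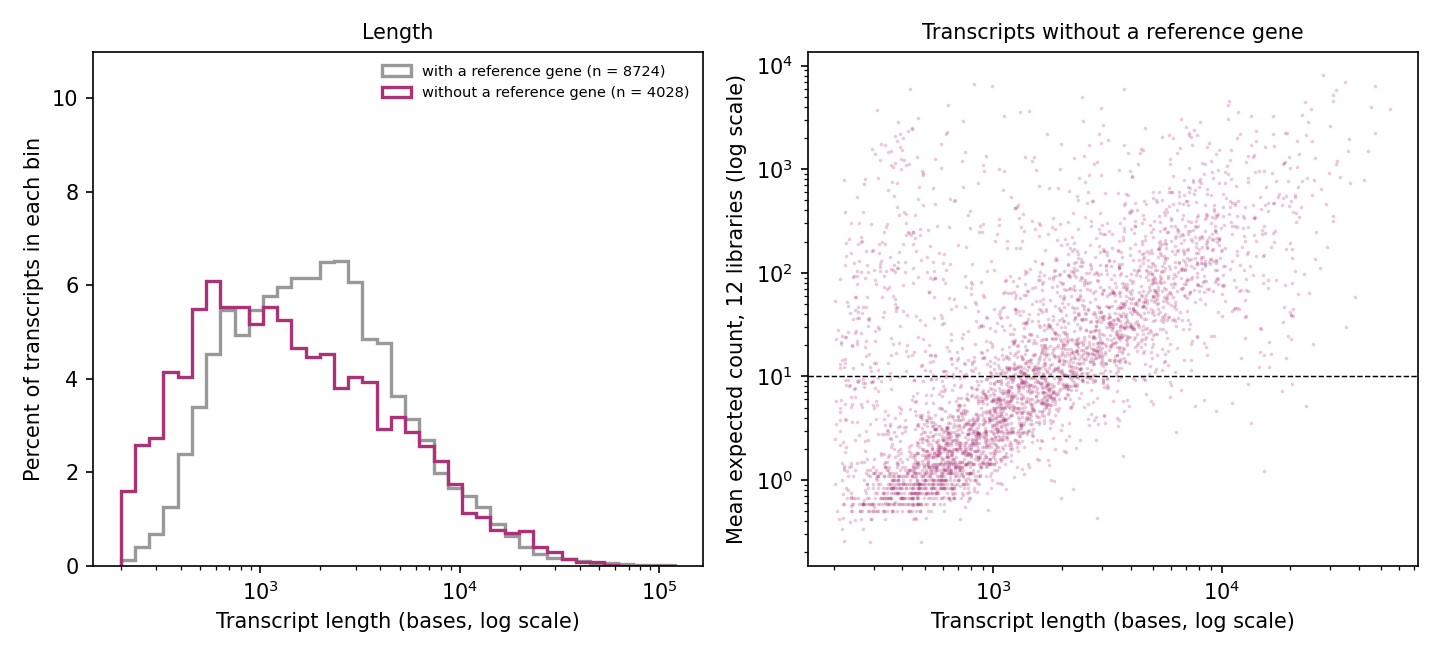
Left, percent of transcripts in each length bin (bases, log scale) for the 4028 transcripts without a reference gene and the 8724 with one; right, mean expected count over 12 libraries against length for the 4028, both on log scales, with a dashed line at a count of 10. The lengths without a gene are shifted to the left, and 1930 points lie below the line.

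The counts were concentrated in few transcripts. The 114 most abundant held 50% of all counts of the 4028, 756 held 90%, and 1930 (47.9%) had a mean count under 10. The most abundant by count was TCONS_00227891, with 27934 bases and a mean of 8141 counts (7086 to 9296 across libraries), or 1.39% of the total. TCONS_00431102 (34621 bases) followed with a mean of 6891 counts, between 5068 and 9485. Both were thus found in every library at more than 5000 counts.

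Ranked by FPKM the order was different, because very short transcripts led it. The deposited FPKM values imply an effective length that is shorter than the transcript by a median of 225 to 263 bases in each library, so a transcript near that length is divided by very few bases. The highest mean FPKM belonged to TCONS_00502147, which is 221 bases long and had 33947 FPKM from a mean of 783 counts. Next came TCONS_00274395 (309 bases, 31916 FPKM), TCONS_00397381 (433 bases, 18425 FPKM), TCONS_00128788 (294 bases, 16561 FPKM), TCONS_00578998 (225 bases, 14735 FPKM) and TCONS_00401337 (322 bases, 12823 FPKM). None of these 6 is longer than 433 bases. The 218 transcripts under 300 bases held 1.93% of the counts of the 4028 but 35.5% of their summed FPKM. Likewise the 4028 held 34.8% of the counts of the whole long non-coding table and 64.2% of its FPKM. Differences between groups are therefore given on counts.

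The 3 longest transcripts were also found in every library. TCONS_00431075 (54583 bases) had 31.6 to 41.4 FPKM in controls and 39.2 to 49.3 FPKM in Dnmt3l libraries, with a log2 difference of 0.25 ± 0.08 (SE) and an adjusted p of 0.221 in edgeR's quasi-likelihood test. TCONS_00472683 (46880 bases) had 70.8 to 98.3 FPKM in controls and 63.4 to 92.1 FPKM in Dnmt3l libraries. TCONS_00431079 (46833 bases) had 19.3 to 30.8 FPKM in controls and 23.2 to 42.0 FPKM in Dnmt3l libraries. In all 3 the ranges of the genotypes overlapped, and none passed the test.

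At 0.1 FPKM or more, 2076 of the 4028 were found in all 12 libraries and 307 in only 3, the fewest that the rule allows. Each library had between 3109 and 3270 of them. In control libraries alone 48 were found, and in Dnmt3l libraries alone 40. None of either set was found in more than 5 libraries, and their highest mean count was 28.7. Found in all 3 libraries of a group and in none of the others were 2 transcripts for CM, 1 for CF, 3 for DM and 1 for DF. These counts were not taken over all transcripts tested, so whether they are particular to the 4028 is not known. The rule itself had a gap at its edge. The lowest transcript inside it, TCONS_00000606, had a value of 0.12 FPKM in the third of its libraries by level, and the highest outside it, TCONS_00044791, had 0.03 FPKM there. Next inside were TCONS_00599148 (0.64, 0.44 and 0.14 FPKM in its 3 libraries) and TCONS_00499968 (2.21, 1.35 and 0.22 FPKM). Next outside were TCONS_00020088 and TCONS_00449063, each with 0.01 FPKM in the third library.

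The spread between libraries of a group set what could be seen. The coefficient of variation within groups had a median of 114% for the 1930 transcripts under a mean count of 10, 35.1% for the 1294 between 10 and 100, 15.5% for the 655 between 100 and 1000, and 9.92% for the 149 at 1000 or more. The median standard error of the log2 difference between genotypes fell along the same classes, from 1.12 through 0.38 and 0.15 to 0.09. Differences of more than 1 on the log2 scale were found in 44.7%, 10.3%, 1.68% and 0.671% of the classes in this order. Large differences were thus most frequent where the spread between libraries was widest. Of the 1930 rarest transcripts, 1 had all 6 Dnmt3l libraries above all controls and 4 had all 6 below. The values by class were not taken over all transcripts tested. Whether they are particular to transcripts without a gene is therefore not known.

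The main comparison asks which transcripts differ between Dnmt3l and control cortex when the differences of the sexes are averaged. Of the 4028 transcripts, 19 passed (0.472%): 14 were higher and 5 lower in Dnmt3l cortex. Over all 12752 transcripts tested, 63 passed, a percentage of 0.494, with 0.298% higher and 0.196% lower. The share among transcripts without a gene was thus close to the background. The test was edgeR's quasi-likelihood test with Benjamini-Hochberg adjustment over all 12752, two-sided, at an adjusted p of 0.05. At an unadjusted p under 0.05 there were 495 of the 4028, 12.3% here and 12.3% over all. The median log2 difference was 0.03 for the 4028, -0.04 for the transcripts with a gene and -0.02 for all tested, and the median size of a difference was 0.44, 0.54 and 0.50. The 19 had lengths of 317 to 13715 bases and mean counts of 24.1 to 5926; none was among the 1930 with a mean count under 10.

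The count depended on the libraries. Leaving out 1 library gave 7 called transcripts without CM1, 2 without CM2, 6 without CM3, 13 without CF1, 4 without CF2, 8 without CF3, 8 without DM1, 6 without DM2, 6 without DM3, 60 without DF1 (31 higher and 29 lower), 5 without DF2 and 9 without DF3. Without CM3, CF1 and CF2, the libraries with liver transcripts, 1 transcript was called, TCONS_00502642. The calls over all transcripts tested changed as well, from 63 to 177 without DF1. They were 27 to 45 without any other single library and 6 without CM3, CF1 and CF2. The sign of all 19 was the same in the 24 alternative fits, but each passed in a different number of them. TCONS_00519701 passed in 23, TCONS_00519703, TCONS_00306753 and TCONS_00242126 in 21, TCONS_00056696 in 17, TCONS_00502642 in 14 and TCONS_00235912 in 13. TCONS_00376678, TCONS_00567381 and TCONS_00575405 passed in 12, TCONS_00366639 and TCONS_00575442 in 11, and TCONS_00541272 and TCONS_00397381 in 10. Fewest were 9 for TCONS_00575598 and TCONS_00144924, 8 for TCONS_00263989 and TCONS_00576705 and 7 for TCONS_00541267. The excess of higher calls depended on the method. Upper quartile scaling called 20 higher and 3 lower, DESeq2 91 and 91, limma on log2(FPKM + 0.1) 9 and 12, and edgeR on transcripts with 0.1 FPKM in all 12 libraries 42 and 49. Over all transcripts in each fit, these called 75, 554, 74 and 239 in the same order, both directions together. With the scaling taken from the mRNA table, 182 were higher and 4 lower, with 567 called over all transcripts tested. The median of the 4028 then moved from 0.03 to 0.39. The next paragraphs give differences relative to the long non-coding table.

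**Figure D2:**
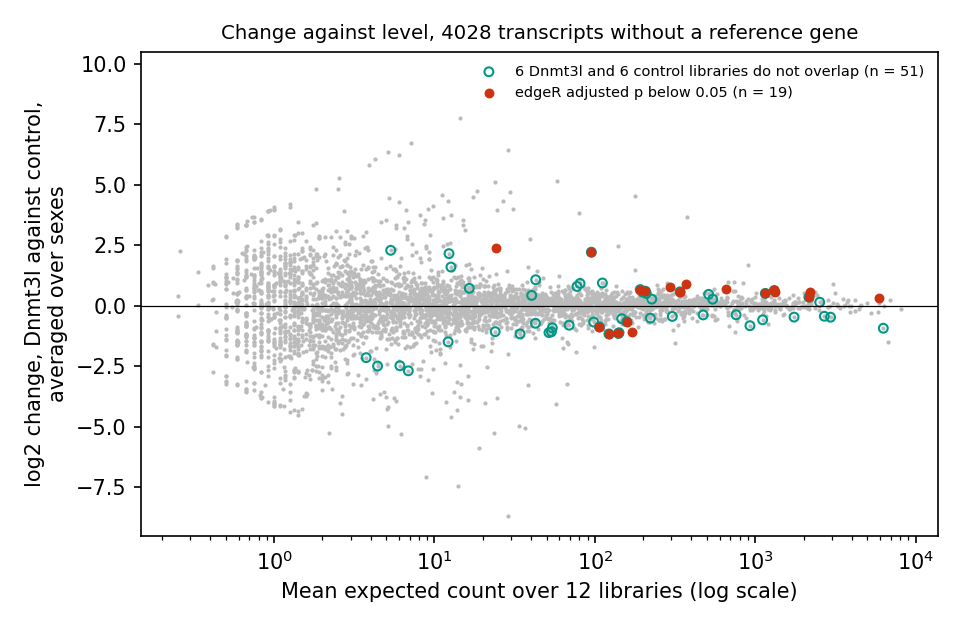
log2 difference of Dnmt3l against control, averaged over the sexes, against the mean expected count over 12 libraries (log scale), for the 4028 transcripts without a reference gene; filled points passed edgeR's test and open circles mark transcripts whose 6 Dnmt3l and 6 control libraries do not overlap. The 19 that passed lie at mean counts of 24.1 or more, while the widest scatter is at low counts.

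Without any model, 22 transcripts (0.546%) had all 6 Dnmt3l libraries above all 6 controls in CPM, and 29 (0.72%) had all 6 below. Over all transcripts tested these shares were 0.525% and 0.831%. Their log2 differences ran from 0.14 to 2.29 above and from -2.69 to -0.38 below. Of both sets together, 11 were among the 19 called, 7 higher and 4 lower, and 40 were not called.

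TCONS_00366639 had the largest difference of the 19. This transcript of 3986 bases had 4.33, 4.94 and 7.67 CPM in control males and 3.79, 2.67 and 0.631 CPM in control females. It had 42.9, 33.7 and 35.6 CPM in Dnmt3l males and 7.15, 10.1 and 13.97 CPM in Dnmt3l females. Within each sex the genotypes did not overlap, while DF1 lay below CM3. These CPM rest on few reads, with 7, 8 and 14 counts in control males and 72, 61 and 63 in Dnmt3l males. The log2 difference was 2.40 ± 0.41 (SE, 12 libraries), with an adjusted p of 0.0313 in edgeR.

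TCONS_00056696, the longest of the 19 with 13715 bases, had 11.1, 27.2 and 32.9 CPM in control males and 15.7, 14.7 and 18.9 CPM in control females. Its values were 53.7, 98.9 and 143 CPM in Dnmt3l males and 106, 41.5 and 109 CPM in Dnmt3l females. All 6 Dnmt3l libraries lay above all 6 controls, and the sexes did not differ in order. In edgeR the log2 difference was 2.21 ± 0.35, with an adjusted p of 0.0190. Among its counts not one library had a whole number.

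The 5 lower transcripts were of middle abundance, with mean counts of 107 to 170.2. TCONS_00306753 (8443 bases) had 91.0, 101 and 93.7 CPM in control males and 97.0, 97.9 and 128 CPM in control females, against 55.4, 31.0 and 37.3 CPM in Dnmt3l males and 57.2, 52.7 and 37.7 CPM in Dnmt3l females. All Dnmt3l libraries were below all controls. The log2 difference of -1.17 ± 0.18 had an adjusted p of 0.0163 in edgeR and was nearly equal in males (-1.21) and females (-1.13).

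TCONS_00242126 (1871 bases) had the tightest groups of the lower transcripts. Its control values were 95.4, 80.9 and 88.2 CPM in males and 79.1, 80.0 and 70.0 CPM in females, and its Dnmt3l values were 40.5, 44.8 and 44.1 CPM in males and 45.5, 49.9 and 43.7 CPM in females. The highest Dnmt3l library, DF2, stayed below the lowest control, CF3. It differed by -0.87 ± 0.12 on the log2 scale, with an adjusted p of 0.0130 in edgeR.

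TCONS_00263989 (7614 bases) had 131, 137 and 107 CPM in control males, 87.8, 95.3 and 132 CPM in control females, 54.8, 66.9 and 67.8 CPM in Dnmt3l males and 35.8, 26.3 and 65.0 CPM in Dnmt3l females. The genotypes did not overlap, and the lowest 2 values were female. Its log2 difference of -1.15 ± 0.21 had an adjusted p of 0.0438 in edgeR. TCONS_00576705 (2517 bases) had 104, 101 and 134 CPM in control males, 124, 117 and 107 CPM in control females, 62.6, 55.3 and 64.4 CPM in Dnmt3l males and 82.6, 90.8 and 84.4 CPM in Dnmt3l females. Again the genotypes did not overlap, with the Dnmt3l males lowest. A log2 difference of -0.66 ± 0.12 had an adjusted p of 0.0359 in edgeR.

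TCONS_00567381 (3039 bases) was the lower transcript in which the genotypes overlapped. Controls had 149, 128 and 119 CPM in males and 123, 155 and 152 CPM in females. Dnmt3l males had 53.1, 48.1 and 50.9 CPM, and Dnmt3l females had 127, 67.8 and 57.7 CPM. The female library DF1 lay within the controls, and the other 5 Dnmt3l libraries lay below them. The log2 difference was -1.07 ± 0.19, with an adjusted p of 0.0337 in edgeR.

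**Figure D3:**
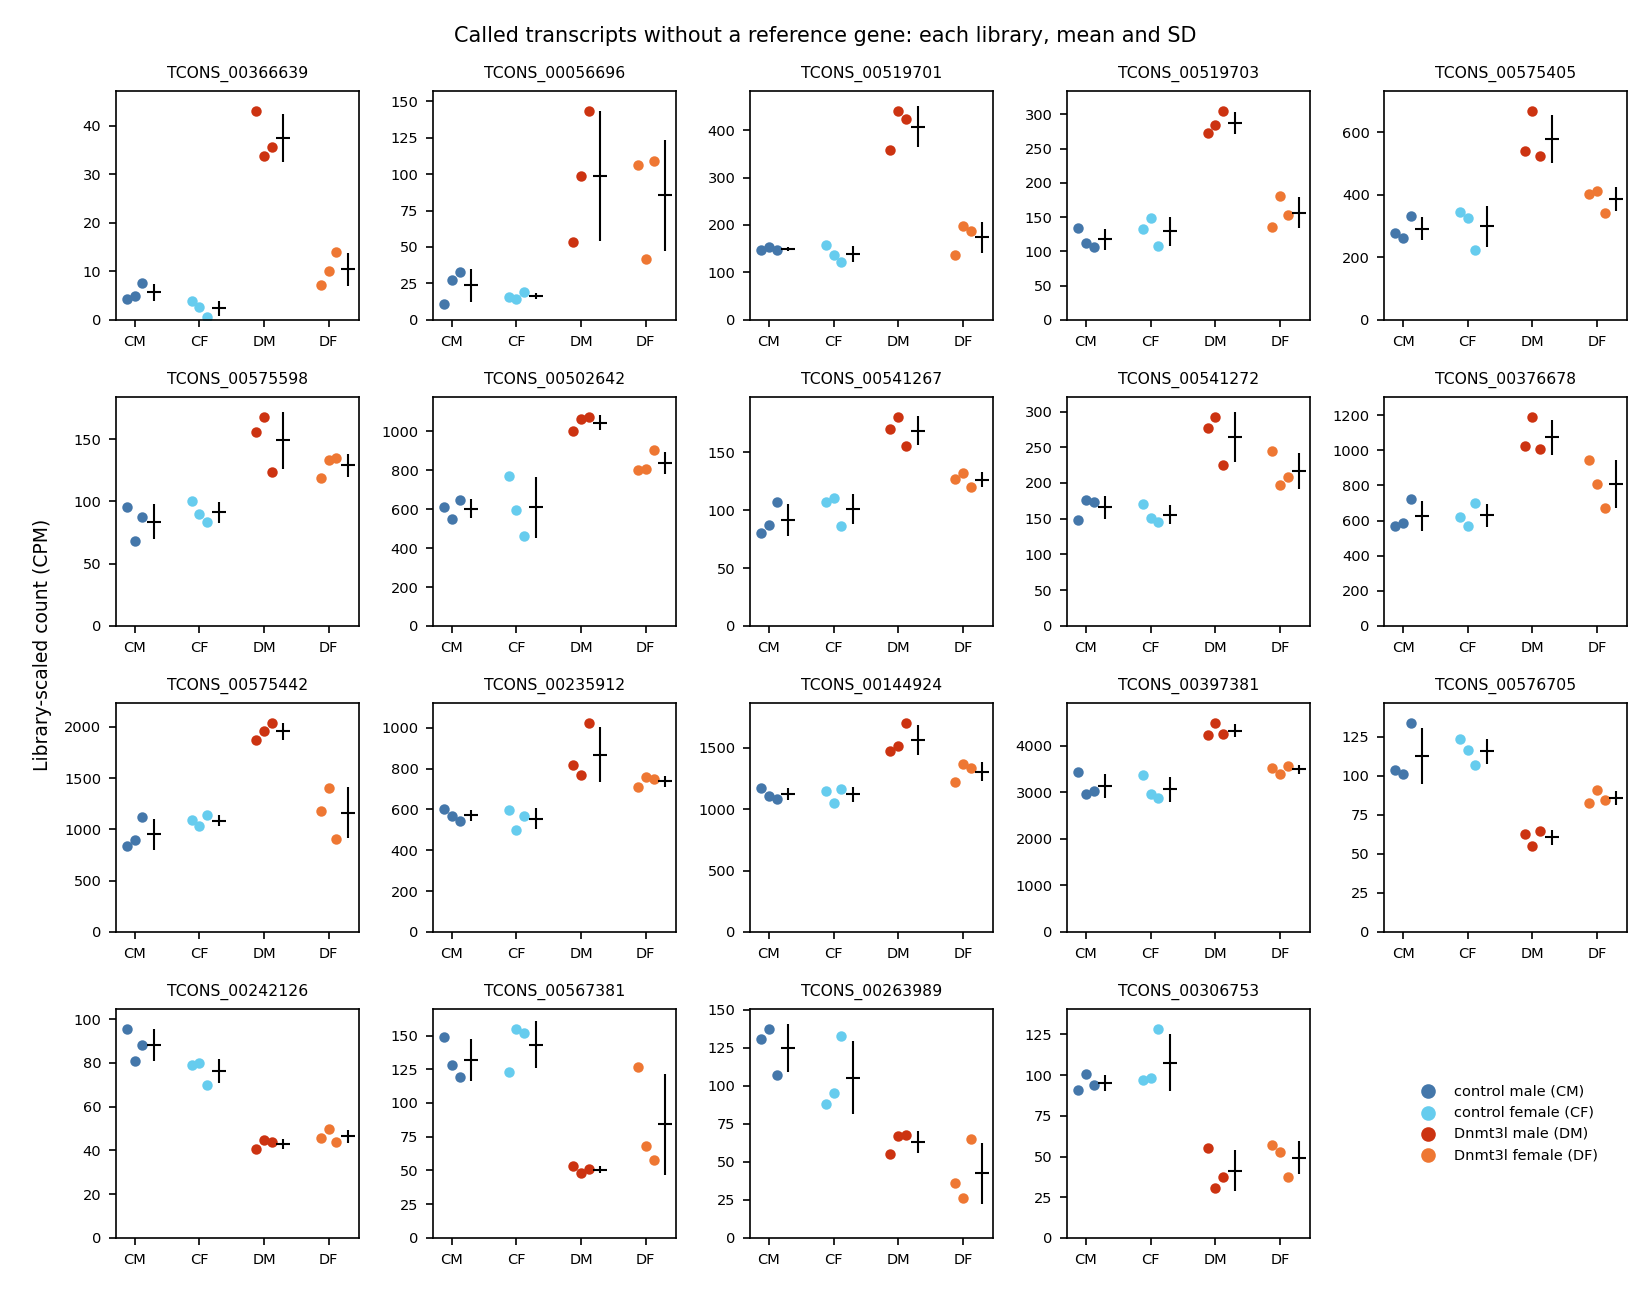
Library-scaled counts (CPM, linear axis from 0) of the 19 called transcripts in each library by group, with black marks for the mean and SD of 3 libraries. Males of the genotypes do not overlap in any of the 19 panels, and females overlap in 6.

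Of the 12 other higher transcripts, TCONS_00519701 and TCONS_00519703 had the lowest adjusted p. TCONS_00519701 (1353 bases) had 147, 153 and 146 CPM in control males, 157, 137 and 122 CPM in control females, 358, 439 and 424 CPM in Dnmt3l males and 136, 199 and 187 CPM in Dnmt3l females. The Dnmt3l males stood well above every other library, DF2 and DF3 lay above the controls, and DF1 lay among them. The log2 difference averaged over the sexes was 0.89 ± 0.11, with an adjusted p of 0.00737 in edgeR; without CM3, CF1 and CF2 the adjusted p was 0.145.

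TCONS_00519703 (902 bases) was likewise highest in Dnmt3l males. It had 134, 112 and 106 CPM in control males, 132, 149 and 107 CPM in control females, 273, 285 and 305 CPM in Dnmt3l males and 135, 182 and 154 CPM in Dnmt3l females. DF1 again lay within the controls, and its counts were whole in every library. Its log2 difference of 0.78 ± 0.12 had an adjusted p of 0.0146 in edgeR. Of the transcripts with adjoining identifiers, picked after their values were seen, TCONS_00519702 had a log2 difference of 1.07 ± 0.23 (adjusted p of 0.0776 in edgeR) and TCONS_00519705 of 0.94 ± 0.19 (0.0582). In both of these the genotypes did not overlap in CPM, and neither passed. Whether the 4 share reads or a locus was not tested.

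Among the abundant higher transcripts the differences were small and the values close together. TCONS_00397381 (433 bases, also among the 6 highest in FPKM) had 3436, 2954 and 3030 CPM in control males, 3371, 2956 and 2869 CPM in control females, 4229, 4479 and 4252 CPM in Dnmt3l males and 3521, 3388 and 3566 CPM in Dnmt3l females. The Dnmt3l males were highest, and DF2 lay below CM1. Its log2 difference was 0.32 ± 0.06 (adjusted p of 0.0449 in edgeR). TCONS_00144924 (7788 bases) had 1174, 1109 and 1080 CPM in control males, 1144, 1049 and 1168 CPM in control females, 1476, 1516 and 1699 CPM in Dnmt3l males and 1220, 1366 and 1332 CPM in Dnmt3l females. Here the genotypes did not overlap, with DF1 the lowest of the Dnmt3l libraries. It differed by 0.35 ± 0.06 on the log2 scale (adjusted p of 0.0376 in edgeR).

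TCONS_00235912 (371 bases) had 600.0, 569 and 544 CPM in control males, 598, 498 and 567 CPM in control females, 815, 766 and 1021 CPM in Dnmt3l males and 708, 756 and 750.3 CPM in Dnmt3l females, a log2 difference of 0.51 ± 0.08 (adjusted p of 0.0273 in edgeR). TCONS_00502642 (465 bases) had 612, 549 and 645 CPM in control males, 769.6, 598 and 460.0 CPM in control females, 1001, 1063 and 1072 CPM in Dnmt3l males and 804, 806 and 904 CPM in Dnmt3l females, a log2 difference of 0.63 ± 0.11 (adjusted p of 0.0359). In both the genotypes did not overlap. For TCONS_00502642 the nearest control was CF1, and its counts were whole in every library.

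TCONS_00376678 (2496 bases) had 571, 585 and 722 CPM in control males, 622, 568 and 699.7 CPM in control females, 1026, 1187 and 1008 CPM in Dnmt3l males and 947, 809 and 673 CPM in Dnmt3l females. DF3 lay within the controls and the other 5 above them. The log2 difference was 0.57 ± 0.10 (adjusted p of 0.0376 in edgeR). TCONS_00575442 (11992 bases) had 837, 897 and 1122 CPM in control males, 1090, 1027 and 1136 CPM in control females, 1866, 1963 and 2033 CPM in Dnmt3l males and 1175, 1402 and 908 CPM in Dnmt3l females. Only its males were separated, since DF3 lay among the controls. On the log2 scale it differed by 0.57 ± 0.11 (adjusted p of 0.0441 in edgeR).

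The other 4 higher transcripts had log2 differences between 0.57 and 0.68. TCONS_00575405 (1754 bases) had 279, 263 and 333 CPM in control males, 347, 328 and 225 CPM in control females, 542, 668 and 526 CPM in Dnmt3l males and 404, 412 and 343 CPM in Dnmt3l females, with DF3 just below CF1 (adjusted p of 0.0379 in edgeR). TCONS_00575598, the shortest of the 19 with 317 bases, had 67.9 to 100.3 CPM in the 6 controls and 118 to 167 CPM in the 6 Dnmt3l libraries (adjusted p of 0.0449). TCONS_00541267 (4637 bases) had 80.5 to 111 CPM in controls and 119.7 to 180.2 CPM in Dnmt3l libraries (adjusted p of 0.0449). TCONS_00541272 (9355 bases) had 146 to 177 CPM in controls and 197 to 292 CPM in Dnmt3l libraries (adjusted p of 0.0376). The genotypes did not overlap in the last 3 of these.

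The 19 were also compared by sex. In males the genotypes were separated in all 19 and in females in 13, and the log2 difference was larger in size in males in 17; since both sexes entered the average that chose the 19, these counts are a description. In males alone, 3 of the 4028 passed against a background of 0.141% of all tested: TCONS_00519701 (log2 difference of 1.45 ± 0.16, adjusted p of 0.00348 in edgeR), TCONS_00519703 (1.29 ± 0.17, 0.00881) and TCONS_00575442 (1.04 ± 0.15, 0.0242). At an unadjusted p under 0.05 there were 378 (9.38%, against 9.44% of all tested). Leaving out 1 library gave 20 without DF1, 13 without DF3, 5 without CF1, 5 without CF3, 1 without CM2 and 1 without DM3, and 2 or 3 for each of the others. Over all transcripts tested, 59 were called without DF1, 39 without DF3 and 9 to 19 without any other single library. Without CM3, CF1 and CF2 none of these 3 transcripts passed (adjusted p of 0.0761 to 0.104 in edgeR), and the 1 transcript called was another.

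In females alone, 0 of the 4028 passed in edgeR, and the background was 0% as well. At an unadjusted p under 0.05 there were 264 (6.55%, against 6.37% of all tested), and DESeq2 called 37, limma on FPKM 1 or 3 by the pseudocount, and limma voom with library weights 3. Leaving out DF1 gave 2, against 11 over all transcripts tested. Leaving out CF1 or CF3 gave 1 each, against 1 each over all tested. In females TCONS_00519701 had a log2 difference of 0.32 ± 0.16 and TCONS_00575442 of 0.10 ± 0.15, the latter with DF3 below the control females.

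The difference between the sexes was tested as the male effect minus the female effect. It passed for 0 of the 4028 in edgeR against a background of 0.0235%, with 248 at an unadjusted p under 0.05 (6.16%, against 6.2% of all tested), 21 in DESeq2 and 0 in the limma fits; leaving out CF1 or CF3 gave 1 each. For TCONS_00519701 the male effect exceeded the female effect by 1.12 ± 0.23 on the log2 scale with an adjusted p of 0.676, and for TCONS_00519703 by 1.02 ± 0.23 (0.779). Of the 21 in DESeq2, 12 had the higher effect in males and 9 in females. Across transcripts the male and female effects were only loosely related: Pearson's r was 0.05 below a mean count of 10, 0.14 from 10 to 100, 0.23 from 100 to 1000 and 0.50 for the 149 at 1000 or more, as a description over transcripts of the same libraries. Of the 149, 59.7% had the same sign in both sexes.

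**Figure D4:**
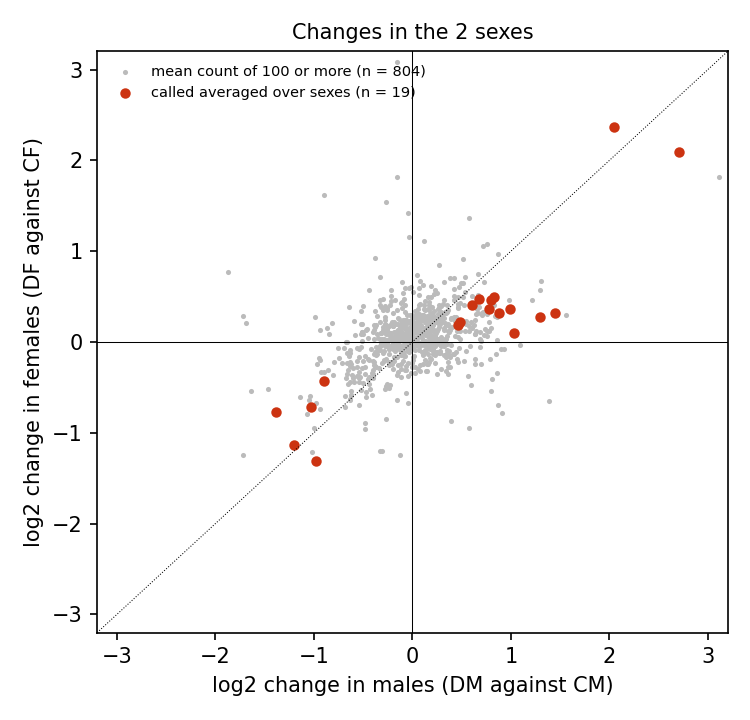
log2 difference of Dnmt3l against control in females against that in males, for the 804 transcripts with a mean count of 100 or more and the 19 called ones in red, with a dotted line of equality; 4 transcripts lie outside the axes. Most of the red points lie between the horizontal axis and the dotted line, which is the larger male difference of 17 of the 19.

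In the 19, which were called from these same values, the Dnmt3l libraries can be described one by one. Over the 19, the median log2 distance from the control mean of the same sex, in the direction of the call, was 0.90, 1.01 and 0.86 in DM1, DM2 and DM3, and 0.43, 0.48 and 0.44 in DF1, DF2 and DF3. DF1 was the least changed of the 6 in 8 of the 19, DF3 in 5, DF2 in 4 and DM1 in 2. The number of the 19 that lay within the range of the controls was 4 for DF1, 3 for DF3 and 1 for DF2, and 0 for each male library. DF1, which stood apart in its glial and endothelial markers, lay near DF2 and DF3 in this median. However, DF1 entered the fit that chose the 19, and 60 transcripts were called without it. The median therefore cannot show whether DF1 was like DF2 and DF3. Over all 4028 the median log2 difference was 0.012 in males and 0.0031 in females.

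As a reference for size, control females were compared with control males. A single transcript passed and was lower in females, against a background of 0.0235% of all tested in either direction and 0.00784% lower. At an unadjusted p under 0.05 there were 142 (3.53%, against 3.86% of all tested), and leaving out CF1 or CF3 gave 2 called, without CF1 both of them other transcripts. TCONS_00603759 (3560 bases) had 148, 149 and 182 CPM in control males and 1.08, 1.999 and 0 CPM in control females, from 239, 241 and 333 counts against 2, 3 and 0. In Dnmt3l mice it had 130.0, 122 and 118 CPM in males and 0, 1.12 and 4.86 CPM in females. All 6 males lay above all 6 females in both genotypes, with no overlap. The log2 difference of control females against males was -7.19 ± 0.84 with an adjusted p of 0.00927 in edgeR; it rests on 5 female counts in all. It did not pass without CF1 (adjusted p of 0.0726 in edgeR), without CM3, CF1 and CF2 (0.278) or with limma on log2(FPKM + 0.01) (0.253). Between genotypes the males had a log2 difference of -0.37 ± 0.58, which did not pass.

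Some abundant transcripts had large differences that did not pass. Of the 804 transcripts with a mean count of 100 or more, 12 had a log2 difference of more than 1 in size. Of these 12, 3 were called and 9 were not. The same count was not taken over all transcripts tested, so whether it is particular to the 4028 is not known. TCONS_00184574 (21216 bases) had 0, 0 and 5.48 CPM in control males, 26.0, 533 and 306 CPM in control females, 343, 375 and 96.1 CPM in Dnmt3l males and 240.0, 296 and 509.7 CPM in Dnmt3l females. The control males were low and the other groups overlapped, so that CF2 was higher than every Dnmt3l library. Its log2 difference of 3.68 ± 0.78 had an adjusted p of 0.0775 in edgeR. TCONS_00168071 (28957 bases) had at most 2.60 CPM in 6 libraries and 54.8 to 393 CPM in the other 6, spread over 3 of the 4 groups for the high values; its adjusted p was 0.312. TCONS_00575215 (353 bases) was the one among the 9 with full separation, at 93.2 to 136 CPM in controls and 17.1 to 79.7 CPM in Dnmt3l libraries, with a log2 difference of -1.12 ± 0.29 and an adjusted p of 0.149. In 8 of the 9 the counts were not whole numbers in at least 1 library, the form that divided reads take. That share was not taken over the 804. Of all 4028, most of them rarer, 49.5% had whole counts in every library. Whether divided reads have a part in these differences was not tested.

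Reads that fit more than 1 transcript limit what an identifier stands for. Among the 3660 transcripts with at least 12 counts in total, 12 formed 6 pairs with the same counts in every library, with a mean count of up to 421; none of them was called. Of the 19 called, 6 had an identifier within 50 of that of another called transcript: TCONS_00519701 and TCONS_00519703, TCONS_00541267 and TCONS_00541272, and TCONS_00575405 and TCONS_00575442. The number of independent loci behind the 19 is therefore not known.

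The share of long non-coding counts that fell on the 4028 differed between the genotypes by less than the spread between libraries, at 34.8% ± 0.537 (SD, n = 6) in controls and 34.8% ± 0.603 in Dnmt3l libraries. The exact permutation test of genotype within sex gave p = 0.805. Set against the mRNA table the 4028 were higher: there were 19.9 ± 1.18 of their counts per 1000 mRNA counts in controls and 24.4 ± 2.48 in Dnmt3l libraries, a ratio of 1.23. The ranges were 18.7 to 21.8 and 21.5 to 28.7, and overlapped only through CF1 and DF1. The exact two-sided permutation p was 0.01 (0.0167 adjusted over the 5 library values compared); it was 0.005 without DF1 and 0.075 without CM3, CF1 and CF2, where 40 assignments remain.

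The other long non-coding transcripts moved with them, from 37.2 ± 1.74 to 45.6 ± 4.97 counts per 1000 mRNA counts (exact permutation p = 0.005, the smallest that 400 assignments give). The totals of the mRNA table were lower in Dnmt3l libraries, 24.7 ± 1.80 against 29.0 ± 1.66 in units of 1000000 counts (exact permutation p = 0.005), while the totals of the long non-coding table overlapped. A higher level per mRNA count and a lower mRNA total cannot be told apart in these values. Within either sex alone, 3 against 3 libraries cannot give an exact p below 0.1.

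**Figure D5:**
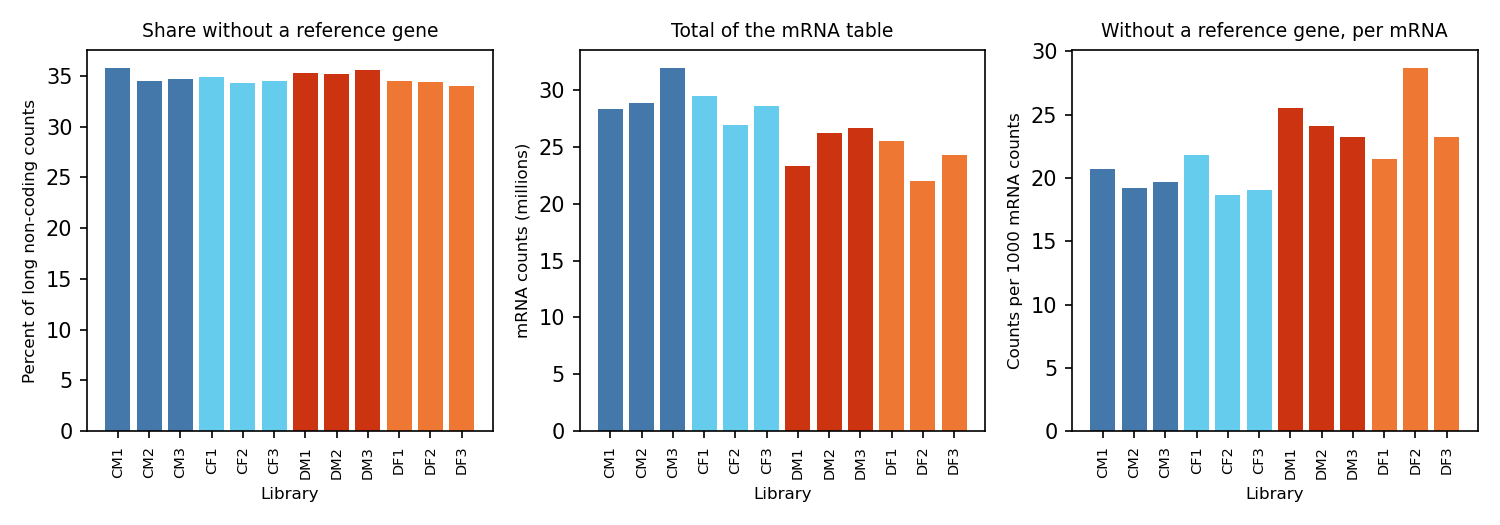
Values of the 12 libraries as bars from 0, colored by group: percent of long non-coding counts on the 4028 transcripts, total counts of the mRNA table in units of 1000000, and counts of the 4028 per 1000 mRNA counts. The first is level across libraries at 34.1 to 35.8%, the second is lower and the third higher in the Dnmt3l libraries, with DF1 the lowest of those at 21.5.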

How the data were processed

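Libraries from total RNA of medial frontal cortex were depleted of ribosomal RNA and prepared with dUTP marking of the second strand, per the labels' protocols. The submitters' processing notes list cutadapt 1.9.1, HISAT2 2.0.1, HTSeq 0.6.1, bedtools 2.17.0, DESeq2 and build GRCm38; their roles, the assembler and the use of strand in counting are not given in the sources used here. The authors deposited, per transcript and library, expected counts and FPKM values; FPKM was scaled within its own table.

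The 4028 transcripts and all lists were chosen with earlier results of these data known. Expected counts were rounded and fitted with edgeR 4.0.16 (R 4.3.3; quasi-likelihood, TMM scaling, 4 group means, 12 libraries, 8 residual degrees of freedom). The fit covered all 12752 transcripts with at least 0.1 FPKM in 3 libraries, with adjustment over all of them and no replicate block. It was also run on simulated counts, with changes placed only in more abundant transcripts. Those counts had a smaller spread between libraries than the data, so that run cannot show the error rates here. CPM are counts per 1000000 of the long non-coding table after TMM. Counts called whole lay within 0.005 of a whole number. Library values were compared by exact permutation within sex. The precision is limited by 3 libraries per group and by the counts behind each value. Alternatives were RLE, upper quartile and mRNA-table scaling, DESeq2 1.42.0, limma 3.58.1 on log2(FPKM + 0.1) or (FPKM + 0.01), voom with library weights, other filters, the replicate block and left-out libraries. Named were called transcripts whose genotypes did not overlap, the 6 highest in FPKM, the 3 longest, those next to the rule's edge and that called between control sexes; the other called, abundant or variable ones were named after their values were seen. Position classes, neighbouring genes and sums per locus were planned and not run, since the files used here give these transcripts no position. The small RNA libraries and the circular RNA table were not used here.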

Additional observations from a re-analysis of the deposited data

How the results depend on the processing

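Of 24 alternatives, those that changed the number of called transcripts averaged over sexes by more than 1.5 times from 19 gave 186 (scaling from the mRNA table), 182 (DESeq2), 91 (0.1 FPKM in all 12 libraries), 58 (voom with weights), 38 (a mean count of at least 10, chosen after seeing the data), 4 (replicate block) and 1 (without CM3, CF1 and CF2); leaving out 1 library gave 2 to 60. In males, 3 became 151 with DESeq2, 46 with mRNA-table scaling, 46 with 0.1 FPKM in all libraries, 41 with voom, 25 and 20 with limma on FPKM, 27 with the mean count, 17 with only the male groups, 14 with no filter, 8 with upper quartile scaling, 1 without CM3, CF1 and CF2, and 1 to 20 with 1 library left out. In females, 0 became 37 with DESeq2, 1 and 3 with limma on FPKM, 3 with voom and 0 to 2 with 1 library left out. For the difference between sexes, 0 became 21 with DESeq2 and 0 to 1 with 1 library left out. Over all transcripts tested the main fit called 63 averaged over sexes, 18 in males, 0 in females and 3 for that difference. DESeq2 called 554, 449, 136 and 72 of them. Averaged over sexes, mRNA-table scaling called 567 over all, 0.1 FPKM in all libraries 239, voom 184, the mean count 113 and the replicate block 30. Without CM3, CF1 and CF2 it was 6, and 27 to 177 with 1 library left out. For control females against males, 1 became 10 with DESeq2, 5 with limma on FPKM at either pseudocount, 2 with voom, 2 with no filter, 0 with 0.1 FPKM in all libraries (TCONS_00603759 is then not tested), 0 without CM3, CF1 and CF2, and 1 to 2 with 1 library left out. The median log2 difference of 0.03 became 0.39 with mRNA-table scaling, 0.091 with upper quartile scaling, 0.0060 and 0.0031 with limma on FPKM, 0.14 without CM3, CF1 and CF2, and -0.00077 to 0.069 with 1 library left out. TCONS_00472683 turned from a difference near 0 to 0.35 with mRNA-table scaling. The cause of these changes was not tested. Fewer libraries entered the fits with left-out libraries, and fewer transcripts those with stricter filters. More transcripts (5805 of those without a gene) entered the fit with no filter. For single named transcripts, 525 values stayed on their side of the threshold, 207 no longer passed, 2 came to pass and 1 reversed.

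The labels give the replicate numbers no meaning, and the data did not meet the criterion for pairs: same-numbered libraries of the 2 genotypes correlated between -0.0765 and 0.133 (6 pairs, 1 above 0.1, CF1 with DF1), and 4 of 12 libraries correlated best with their own number. The block left TCONS_00056696, TCONS_00306753, TCONS_00519701 and TCONS_00519703 called. Transcripts under a mean count of 10, with a median coefficient of variation of 114%, could not show moderate differences at this depth. Sums per locus and position classes were not run, and a fit of only the groups compared has no value for the averaged comparison, which uses all groups.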

Other observations

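Of the 149 transcripts without a reference gene with a mean count of 1000 or more, 2 had a coefficient of variation within groups above 50%, against a median of 9.92%. TCONS_00218580 (1482 bases) had 0.542 CPM in CF1 and 1.30 CPM in DF1, and 441 to 1556 CPM in the other 10 libraries. The 2 low libraries are both female, of different genotypes, and share the replicate number 1; they are the same-numbered pair that correlated at 0.133. TCONS_00443155 (820 bases) had 19348 CPM in CM1, 535 CPM in DF2 and 1305 to 5918 CPM in the other 10, with whole counts in every library. Its log2 difference between genotypes of -1.48 ± 0.62 had an adjusted p of 0.375 in edgeR. TCONS_00168069 (30748 bases) had 869 CPM in CF3, 1405 CPM in DF3 and 58.7 CPM in CM2, and at most 4.17 CPM in the other 9; its 2 highest libraries share the replicate number 3. The counts of TCONS_00168069 were not whole in 6 libraries. Near TCONS_00218580 by identifier were TCONS_00218578 and TCONS_00218582, picked after their values were seen. They had 552 and 3462 CPM in CF1, and 960 and 2669 CPM in DF1. Whether TCONS_00218580 shares reads with them was not tested. Nor was it tested whether the replicate numbers mark a shared litter, batch or day.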
